A study of Mus musculus with 18 samples.

Results

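The miR-15/16 family is a set of microRNAs (short RNAs that repress messenger RNAs) which share the seed AGCAGCA, the bases that pair with a target. Its members were taken by name, not by value, as the 5p arms mmu-miR-15a-5p, mmu-miR-15b-5p, mmu-miR-16-5p, mmu-miR-195a-5p and mmu-miR-322-5p together with the 3p arms mmu-miR-15b-3p and mmu-miR-322-3p, which makes 7 of the 1251 entries in the mouse microRNA table. The small RNA libraries came from female SKH-1E Hairless mice, an outbred strain without a functional Hairless gene that is prone to skin tumours under ultraviolet light. Each of 6 mice gave 1 library of each of 3 sample types, so there were 18 libraries, 6 of each type. CHR was nonlesional skin that had received chronic ultraviolet radiation (UVR), PAP was a papilloma, and cuSCC was a cutaneous squamous cell carcinoma. All groups had been irradiated from solar simulators, beginning at adult age, and no unirradiated skin was among the libraries. The libraries were made from pieces of tissue, so they hold keratinocytes together with stroma, vessels, blood and muscle. miR-205-5p, a microRNA of stratified epithelium, lay between 17.37 and 18.47 on the log2 scale in every library. It ranked from 1 to 4 in each, and the normalization described below sets a value by its rank. Equal epithelial content can therefore not be read from it.

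Mature microRNAs are cut from either arm of a hairpin, and bases 2 to 8 of the mature strand largely decide which messenger RNAs it binds. Members of the miR-15/16 family are known for restraining the cell cycle and survival, with D-type cyclins and Bcl2 among their best described targets, and the miR-15a/16-1 locus is lost in many chronic lymphocytic leukaemias. miR-195a and miR-497 are made from 1 further cluster and miR-322, the mouse counterpart of human miR-424, from another that also holds miR-503. Several family members rise when cells leave the cycle or differentiate.

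The mature sequences show what the members share and where they part. They are RefSeq sequences placed on GRCm38.p6, written 5′ to 3′ with the seed, bases 2 to 8, in capitals.
miR-15a-5p, chr14:61632075-61632096, minus strand: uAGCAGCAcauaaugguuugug.
miR-15b-5p, chr3:69009775-69009796, plus strand: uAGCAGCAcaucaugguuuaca.
miR-16-5p, chr3:69009918-69009939, plus strand, and chr14:61631936-61631957, minus strand: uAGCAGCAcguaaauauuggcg.
miR-195a-5p, chr11:70235062-70235082, plus strand: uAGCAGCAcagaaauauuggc.
miR-322-5p, chrX:53054306-53054327, minus strand: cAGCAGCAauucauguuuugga.
miR-497-5p, chr11:70234730-70234751, plus strand: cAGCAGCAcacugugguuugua.

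Counted from the 5′ end with the seed included, miR-15a-5p and miR-15b-5p were identical at 18 of 22 positions, and miR-16-5p and miR-195a-5p at 19 of 21. miR-15b-5p and miR-16-5p matched at 14 of 22 positions, and miR-322-5p matched miR-16-5p at 12 of 22. How reads were divided between such close sequences is not given in the sources used here, so the split between miR-15a-5p and miR-15b-5p and between miR-16-5p and miR-195a-5p is uncertain to that extent. miR-497-5p was no member by the rule but carries the same seed. In all, 10 entries of the table had this seed in RefSeq, and the other 4, miR-195b, miR-6342, miR-6353 and miR-6419, were not detected in any library.

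The 3p members have seeds of their own and would address other messenger RNAs.
miR-15b-3p, chr3:69009813-69009834, plus strand: cGAAUCAUuauuugcugcucua.
miR-322-3p, chrX:53054269-53054289, minus strand: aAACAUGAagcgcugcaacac.

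The hairpins sit in 4 clusters. Mir15a (chromosome 14, 61632027 to 61632110) lies 54 bases from Mir16-1 (61631880 to 61631972), the former in an intron of the long noncoding gene Dleu2 and the latter overlapping an exon of at least 1 Dleu2 transcript. Mir15b (chromosome 3, 69009772 to 69009835) and Mir16-2 (69009902 to 69009996) lie 66 bases apart in introns of Smc4, a condensin subunit. Mir497 (chromosome 11, 70234717 to 70234800) and Mir195a (70235042 to 70235135) lie 241 bases apart, and Mir322 (chromosome X, 53054255 to 53054349) lies 200 bases from Mir503, each outside annotated host genes. Since both miR-16 hairpins give the same 5p strand, the miR-16-5p value cannot be divided between the Dleu2 and the Smc4 locus.

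Values are given as log2 of the share of usable reads in ppm after quantile normalization, and a value of 3.32, equal to 10 ppm, is the lowest in the table and stands for an entry that was not detected. The libraries held between 163 and 365 detected entries, and the lowest value detected in a library ran from 3.32 to 6.83, so an undetected member can only be placed below that level, here called the detection floor of the library. The depth of single libraries is unknown. Of the 7 members, 6 passed the requirement of detection in at least 6 libraries, as did 293 entries in all. miR-15a-5p and miR-195a-5p were detected in 17 libraries each, miR-15b-5p and miR-16-5p in all 18, miR-322-5p in 13, miR-15b-3p in 9 and miR-322-3p in 5. Each comparison below is a limma fit on 6 against 6 libraries with Benjamini-Hochberg adjustment over the 293 entries. Its error is the spread between libraries of the same sample type, each from another mouse, which limma draws toward a value shared over the entries.

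In both lesions and in nonlesional skin the family was dominated by a pair of strands, miR-16-5p and miR-15b-5p. Of the summed linear levels of the 6 strands with the family seed, miR-497-5p included, miR-16-5p made up a median of 60.4% in CHR, 63.4% in PAP and 79.3% in cuSCC. miR-15b-5p made up 33.4%, 34.9% and 16%. The order of the median levels in CHR was miR-16-5p, miR-15b-5p, miR-497-5p, miR-195a-5p, miR-15a-5p and miR-322-5p, and the ranges of neighbours in that order overlapped except between miR-15b-5p and miR-497-5p and between miR-195a-5p and miR-15a-5p. In PAP miR-15a-5p stood above miR-195a-5p, and in cuSCC the order was that of CHR. The last members contributed little, with medians of 0.51%, 0.48% and 0.83% for miR-15a-5p and 0.16%, 0.11% and 0.34% for miR-322-5p. The log2 of the summed level had a range of 12.92 to 13.68 in nonlesional skin, 13.43 to 14.74 in papillomas and 13.75 to 14.62 in carcinomas. Every carcinoma thus exceeded every CHR library, which held for 9.9% of the single entries tested.

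**Figure D1:**
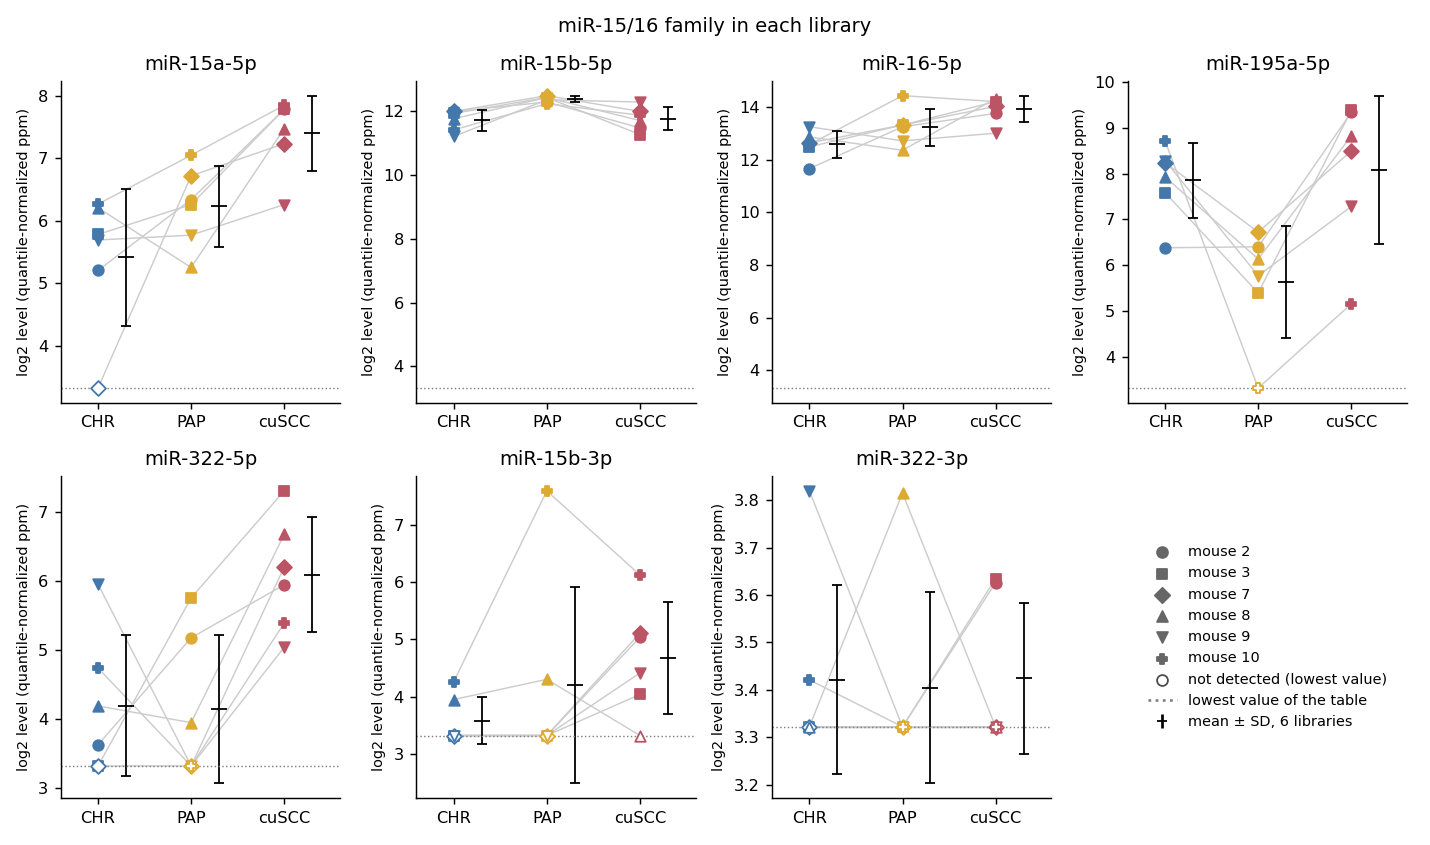
Log2 level (quantile-normalized ppm) of the 7 family members in each library, with 1 marker shape per mouse, grey lines joining the libraries of a mouse, bars for mean ± SD of 6 libraries, and open markers on the dotted line for not detected. miR-15a-5p and miR-16-5p are highest in cuSCC (means 7.40 and 13.93), miR-15b-5p is highest in PAP (12.38), and miR-195a-5p is lowest in PAP (5.63). The vertical scale differs between panels.

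In the nonlesional skin to papilloma comparison, 2 of the 6 tested members changed, miR-15b-5p upward and miR-195a-5p downward. Among all 293 entries 32.4% passed in this comparison, 14% upward and 18.4% downward, so the members' count is close to the background. The median log2 fold change of the 6 members was 0.63, against -0.23 over all entries tested. In cuSCC against CHR, 4 of the 6 members rose (miR-15a-5p, miR-16-5p, miR-322-5p and miR-15b-3p) and none fell, where 42.3% of all entries passed, 20.1% upward and 22.2% downward. The median log2 fold change was 1.22 for the members and 0.11 over all entries. In cuSCC against PAP 1 member rose, miR-322-5p, where 11.6% of all entries passed, 9.22% upward and 2.39% downward, with medians of 0.93 and 0.21. In the fit with a replicate block for mouse, 1 member passed in PAP against CHR, 3 in cuSCC against CHR and 2 in cuSCC against PAP. The share of all entries passing in that fit is not given here, so these counts cannot be set against a background. PAP and cuSCC were compared with the same CHR libraries, so the first pair of comparisons is not independent. miR-15b-3p entered the test mainly through cuSCC, where it was detected in 5 of its 9 libraries, so its direction was in part set by the filter.

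**Figure D2:**
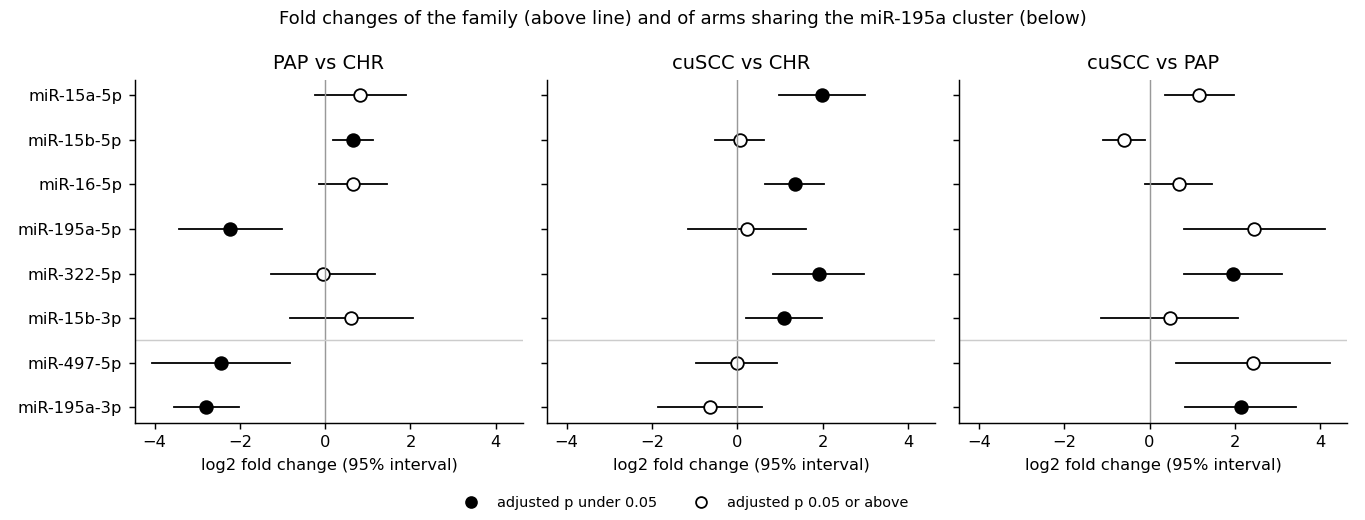
Log2 fold change with its 95% interval (limma) for the 6 tested members, and below the grey line for miR-497-5p and miR-195a-3p of the miR-195a cluster, in each comparison of sample types. Filled points have an adjusted p under 0.05. In PAP against CHR the strands of the cluster with miR-497 and miR-195a lie between -2.79 and -2.23, in cuSCC against CHR miR-15a-5p, miR-16-5p and miR-322-5p lie between 1.34 and 1.99.

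miR-16-5p, the most abundant member and the one made at both the Dleu2 and the Smc4 locus, was highest in cuSCC. In CHR its levels were 11.67, 12.50, 12.64, 12.87, 13.26 and 12.58 in mice 2, 3, 7, 8, 9 and 10. In PAP they were 13.26, 13.33, 13.33, 12.37, 12.72 and 14.44 in the same order, and in cuSCC 13.77, 14.22, 14.03, 14.33, 13.02 and 14.22. Of the 6 cuSCC libraries 5 lay above every CHR library, the exception being that of mouse 9, whose CHR level was itself the highest. The rise from CHR to cuSCC was 1.34 (standard error 0.32, 95% interval 0.65 to 2.03, limma adjusted p = 0.00501), about the same without any 1 mouse (1.19 to 1.66). The papillomas spread over the ranges of both, and the 0.65 from CHR to PAP (limma adjusted p = 0.198) and the 0.69 from PAP to cuSCC (limma adjusted p = 0.252) were within the spread. Without 1 mouse they ran from 0.41 (without mouse 10) to 0.89 and from 0.43 (without mouse 8) to 0.87. As these are bulk samples, more of a strand per cell and more cells of a type that is rich in it cannot be told apart.

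miR-15a-5p, the Dleu2 paralog of miR-15b-5p, was highest in cuSCC, as miR-16-5p was, and far less abundant than its near twin. Its levels in CHR were 5.21, 5.78, 3.32, 6.21, 5.69 and 6.27, undetected in mouse 7, a library whose lowest detected value was 5.77. In PAP they were 6.34, 6.26, 6.72, 5.25, 5.77 and 7.05, where that of mouse 7 was the lowest value detected in its library. In cuSCC they were 7.79, 7.79, 7.24, 7.48, 6.26 and 7.85. The cuSCC was above the CHR and above the PAP of the same mouse in 6 of 6 mice, and 5 of 6 cuSCC libraries exceeded every CHR library. The rise from CHR was 1.99 (standard error 0.47, 95% interval 0.97 to 3.0, limma adjusted p = 0.00501). With undetected values raised to the detection floor it was 1.58, without mouse 7 it was 1.60, and with values under 100 ppm raised to 100 ppm it was 0.82, and in each of these it passed. From PAP to cuSCC the change of 1.17 (95% interval 0.36 to 1.97) did not pass (limma adjusted p = 0.0647), but it did without mouse 10 (1.24, limma adjusted p = 0.0431). Nor did the 0.82 from CHR to PAP (limma adjusted p = 0.227), which was 0.30 without mouse 7.

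miR-15b-5p, which is excised from an intron of Smc4, was highest in the papillomas and had the narrowest spread there. Its levels in CHR were 12.00, 11.94, 12.00, 11.77, 11.22 and 11.42. In PAP they were 12.30, 12.44, 12.50, 12.44, 12.37 and 12.24, all above the highest CHR value. In cuSCC they were 11.49, 11.28, 12.00, 11.72, 12.30 and 11.88, below the PAP of the same mouse in 6 of 6 mice. Among all 293 entries 6.48% had PAP libraries that all lay above CHR. The rise in PAP was 0.65 (standard error 0.21, 95% interval 0.19 to 1.12, limma adjusted p = 0.0364), but the limma adjusted p was 0.0934 in the fit with a replicate block for mouse. It also missed the threshold without mouse 3, 7, 8, 9 or 10 (0.56 to 0.69, limma adjusted p = 0.0666 to 0.0945) and with undetected values raised to the detection floor (limma adjusted p = 0.0727). From PAP to cuSCC the level changed by -0.60 (95% interval -1.10 to -0.10, limma adjusted p = 0.115). Carcinomas differed from CHR by 0.05, with a 95% interval of -0.53 to 0.63 (limma adjusted p = 0.890), so a change of the size seen for miR-16-5p lies outside the interval.

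**Figure D3:**
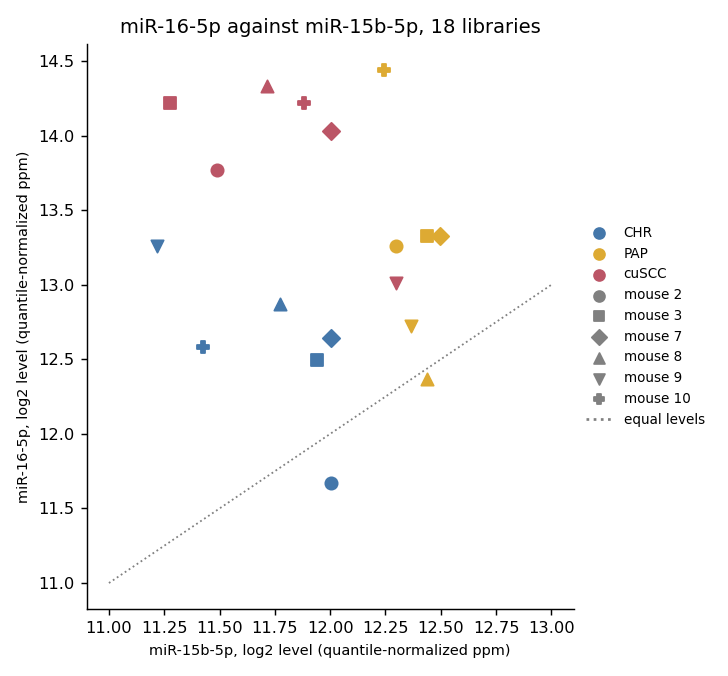
Log2 level of miR-16-5p against that of miR-15b-5p (both quantile-normalized ppm) in the 18 libraries, coloured by sample type with 1 marker shape per mouse, and a dotted line where they are equal. Of the cuSCC libraries 5 lie at the upper left, with miR-16-5p from 13.77 to 14.33 and miR-15b-5p from 11.28 to 12.00, and that of mouse 9 lies among the papillomas.

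The ratio of miR-16-5p to miR-15b-5p, strands with neighbouring hairpins on chromosome 3, had its highest mean in cuSCC. It was chosen after its values were seen and is given with no test. On the log2 scale miR-16-5p exceeded miR-15b-5p by a mean of 0.86 in CHR (-0.33 to 2.04), 0.86 in PAP (-0.07 to 2.20) and 2.15 in cuSCC (0.72 to 2.94). The ranges overlap. Over the 18 libraries Pearson's r between the levels of these strands was -0.212, while that of miR-15a-5p with miR-16-5p was 0.780. The libraries share their normalization and their grouping by sample type, so such values only describe this table.

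The paired strands were tested by their difference within a library, which removes only a shift that a library gives equally to both. An effect of the detection floor stays in it. miR-15a-5p lay at or near that floor in some libraries, while miR-15b-5p and miR-16-5p lay far above it in all. For miR-15a-5p minus miR-15b-5p the mean difference was -6.31 ± 1.30 (SD, n = 6) in nonlesional skin, -6.15 ± 0.69 in papillomas and -4.38 ± 0.93 in carcinomas. It shifted by 1.94 from CHR to cuSCC (exact permutation test, two-sided, adjusted p = 0.0455 over 12 such tests) and by 1.77 from PAP to cuSCC (exact permutation test, adjusted p = 0.0455). For miR-15a-5p minus miR-16-5p, of which the latter is made at the Smc4 locus as well as at Dleu2, the means were -7.17 ± 1.14, -7.01 ± 0.26 and -6.53 ± 0.34. Its shift of 0.48 from PAP to cuSCC passed (exact permutation test, adjusted p = 0.0468) and that of 0.64 from CHR to cuSCC did not (exact permutation test, adjusted p = 0.354). The latter was 0.27 without mouse 7, whose CHR library had no miR-15a-5p detected, and 0.24 with undetected values raised to the detection floor. Under a replicate block for mouse, which here is an exact permutation test by sign flips of 6 pairs, none of these passed (adjusted p = 0.15 for each that had), in a design whose smallest unadjusted p is 0.0312. Without 1 mouse the shifts of 1.94 and 1.77 ran from 1.54 to 2.43 and from 1.53 to 2.01, and both passed only without mouse 9 (exact permutation test, adjusted p = 0.0317). That of 0.48 ran from 0.37 to 0.61 and did not pass without any of the mice 2, 3, 7, 8, 9 and 10 (exact permutation test, adjusted p = 0.0762 to 0.171).

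miR-195a-5p, whose strand nearly equals miR-16-5p, had a lower mean in the papillomas than in CHR. In CHR its levels were 6.38, 7.58, 8.24, 7.92, 8.28 and 8.71 in mice 2, 3, 7, 8, 9 and 10. In PAP they were 6.40, 5.40, 6.72, 6.14, 5.77 and 3.32, the last undetected in a library whose lowest detected value was 6.83. Those of mice 3 and 7 were the lowest values detected in their libraries. In cuSCC they were 9.33, 9.38, 8.49, 8.82, 7.28 and 5.16. The PAP was below the CHR of the same mouse in 5 of 6 mice, with mouse 2 at nearly equal levels, and the cuSCC was above the PAP in 5 of 6, the order in mouse 10 being unknown at that floor. The fall from CHR to PAP was -2.23 (standard error 0.56, 95% interval -3.44 to -1.01, limma adjusted p = 0.0101), and it passed under every alternative run, from -2.68 without mouse 2 to -1.24 with values under 100 ppm raised to 100 ppm. Mouse 10 carried a good part of its size, as without it the fall was -1.60 (limma adjusted p = 0.0142).

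The miR-195a-5p levels of the carcinomas were split, with mice 2, 3 and 8 above every CHR library and mouse 10 below every one. Against CHR the change was 0.22 with a wide 95% interval of -1.17 to 1.62 (limma adjusted p = 0.806). Against PAP it was 2.45 (standard error 0.76, 95% interval 0.80 to 4.10, limma adjusted p = 0.0589). That difference passed in the fit with a replicate block for mouse (limma adjusted p = 0.0218) and without mouse 10 (2.57, limma adjusted p = 0.00272).

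The other strands of that cluster followed miR-195a-5p. miR-497-5p, a seed mate, had levels of 7.99, 7.76, 8.36, 8.25, 8.99 and 8.17 in CHR, 7.0, 3.32, 7.10, 6.68, 7.45 and 3.32 in PAP, and 9.03, 8.99, 8.82, 8.63, 7.68 and 6.27 in cuSCC. The papillomas lay below every CHR library, as for 9.56% of all entries tested, and were undetected in mice 3 and 10. The fall was -2.44 (standard error 0.74, limma adjusted p = 0.0287), and it missed the threshold without mouse 3, 8 or 10 (-2.04, -2.61 and -1.96, limma adjusted p = 0.0551 to 0.0633) or with every entry detected in at least 1 library tested (limma adjusted p = 0.0617). miR-195a-3p, the opposite strand of the miR-195a hairpin, has a seed outside the family.
miR-195a-3p, chr11:70235100-70235121, plus strand: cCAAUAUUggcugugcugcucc.
Its levels were 7.15, 5.94, 5.77, 6.80, 6.96 and 6.01 in CHR, 4.77, 3.32, 3.32, 3.88, 3.32 and 3.32 in PAP, and 6.96, 6.87, 6.49, 6.37, 4.76 and 3.32 in cuSCC. The papillomas of mice 2, 3, 8 and 9 lay below every CHR library, whereas those of mice 7 and 10 were undetected in libraries with detection floors of 6.72 and 6.83, above several CHR levels. It fell by 2.79 in PAP (standard error 0.35, limma adjusted p = 6.04e-05), but by 0.93 with undetected values raised to the detection floor (limma adjusted p = 0.136) and by 0.16 with values under 100 ppm raised to 100 ppm (limma adjusted p = 0.277). From PAP to cuSCC it rose by 2.14 (limma adjusted p = 0.0402), a call lost without mouse 2, 3, 7, 8 or 9 (1.86 to 2.28, limma adjusted p = 0.0757 to 0.176) and with undetected values raised to the detection floor (0.48, limma adjusted p = 0.547). miR-497-5p differed by 2.42 in that comparison (limma adjusted p = 0.0876), and by 2.32 without mouse 10 (limma adjusted p = 0.0427). In cuSCC against CHR neither strand passed (-0.02 and -0.65, limma adjusted p = 0.972 and 0.362).

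**Figure D4:**
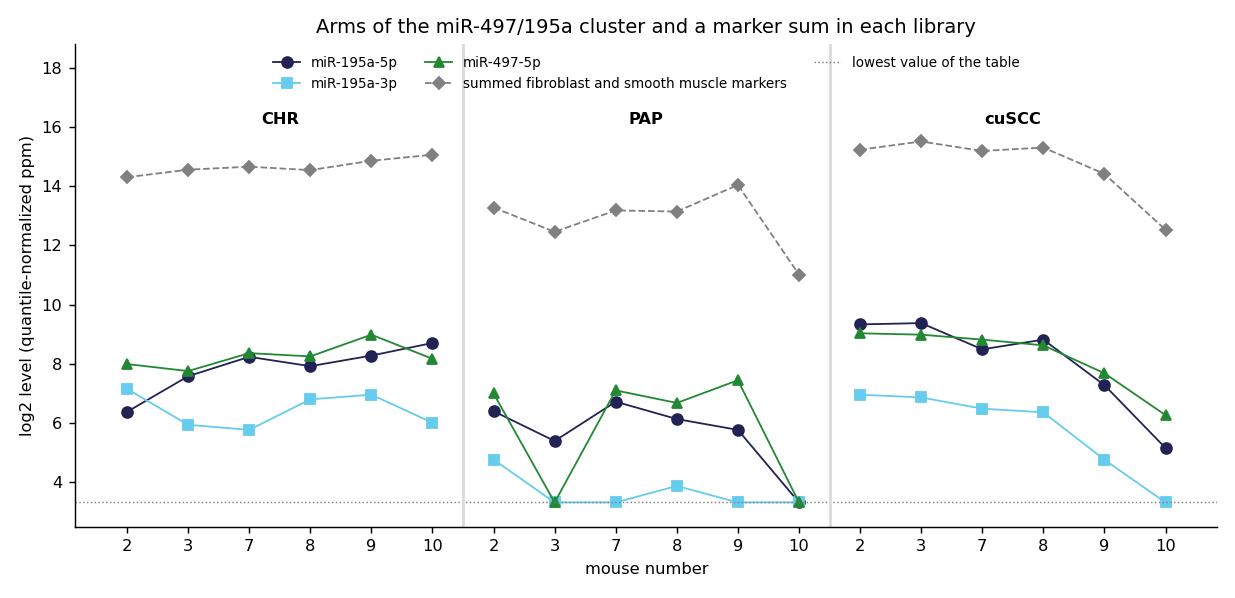
Log2 level (quantile-normalized ppm) of miR-195a-5p, miR-195a-3p and miR-497-5p and the log2 of the summed level of 5 fibroblast and smooth muscle markers, by mouse within each sample type. As plotted, all are lower in PAP than in most CHR libraries (points on the dotted line are undetected). Within the lesions all are plotted at or near their lowest in mouse 10, where the marker sum is 11.02 in PAP and 12.53 in cuSCC. In that PAP library miR-195a-5p, miR-195a-3p and miR-497-5p are undetected under a detection floor of 6.83. Their place among the papillomas is therefore not fully known.

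Markers of stromal cells and of skeletal muscle summed lower in PAP than in CHR, as this cluster was. In cuSCC the skeletal muscle sum was still below every CHR sum, while miR-195a-5p and miR-497-5p differed from CHR by 0.22 and -0.02. The fibroblast and smooth muscle list (miR-143-3p, miR-145a-5p, miR-199a-3p, miR-199a-5p and miR-214-3p, all detected in at least 17 libraries) summed to 14.30 to 15.06 in nonlesional skin, 11.02 to 14.04 in papillomas and 12.53 to 15.51 in carcinomas. Of its 5 strands 3 were lower in PAP than in CHR, and 2 were higher in cuSCC than in PAP. Pearson's r of the list's sum over the 18 libraries was 0.948 with miR-195a-5p, 0.828 with miR-195a-3p and 0.924 with miR-497-5p, values that rest on libraries sharing normalization and sample type. The skeletal muscle list summed to 15.44 to 15.98 in nonlesional skin, 5.32 to 12.45 in papillomas and 6.04 to 14.24 in carcinomas, with miR-133b-3p and miR-206-3p undetected in all PAP libraries and miR-1a-3p undetected in all CHR and PAP libraries. All 3 of its tested strands were lower in PAP than in CHR. In cuSCC against CHR miR-133a-3p fell by 3.22 (limma adjusted p = 0.0476). There miR-133b-3p and miR-206-3p did not pass (limma adjusted p = 0.579 and 0.507). The r of the skeletal muscle sum was 0.762 with miR-195a-5p, 0.912 with miR-195a-3p and 0.760 with miR-497-5p. Thus miR-195a-3p ran closer to it than to the fibroblast and smooth muscle sum. Leukocyte markers also summed lower in PAP (9.03 to 11.82) and in cuSCC (11.13 to 12.59) than in CHR (13.12 to 14.28). Of these, miR-142-3p was detected in 1 CHR library, in no PAP library and in 1 cuSCC library. The leukocyte sum had an r of 0.595, 0.604 and 0.572 with miR-195a-5p, miR-195a-3p and miR-497-5p. In the same order r was -0.769, -0.528 and -0.641 for the erythroid sum described below. It was -0.528, -0.454 and -0.271 for the keratinocyte sum and 0.503, 0.380 and 0.392 for the endothelial sum. The part of these cells in the fall of miR-195a-5p, miR-195a-3p and miR-497-5p was not tested.

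miR-322-5p, the X-linked member, was low or undetected in skin and papillomas and was detected in every carcinoma. Its levels in CHR were 3.63, 3.32, 3.32, 4.19, 5.96 and 4.74, and in PAP 5.18, 5.76, 3.32, 3.95, 3.32 and 3.32. In cuSCC they were 5.95, 7.31, 6.21, 6.68, 5.04 and 5.40, above the CHR of the same mouse in 5 of 6 mice. They were above the PAP in mice 2, 3 and 8, and in mice 7, 9 and 10 the order is not known, since the PAP was undetected in libraries with detection floors of 6.72, 5.48 and 6.83. The rise from CHR was 1.90 (standard error 0.50, 95% interval 0.85 to 2.96, limma adjusted p = 0.00743). It was 1.30 with undetected values raised to the detection floor (limma adjusted p = 0.0359), while with values under 100 ppm raised to 100 ppm, which leaves few libraries above, it was 0.12 (limma adjusted p = 0.466). From PAP to cuSCC it was 1.96 (standard error 0.53, limma adjusted p = 0.0394), but 0.45 with undetected values raised to the detection floor (limma adjusted p = 0.531). That call was also lost without mouse 2, 3, 7, 8 or 9 (1.77 to 2.19, limma adjusted p = 0.0676 to 0.137). PAP and CHR differed by -0.05, with standard error 0.57 (limma adjusted p = 0.962).

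The other arm of that hairpin was close to the detection limit. miR-322-3p was detected in 5 libraries, at 3.82 and 3.42 in the CHR of mice 9 and 10, 3.81 in the PAP of mouse 8, and 3.63 in the cuSCC of mice 2 and 3, and was not tested by itself. Its difference from miR-322-5p shifted by -1.90 from CHR to cuSCC and by -1.94 from PAP to cuSCC (exact permutation test, adjusted p = 0.0455 for each), which are the size of the miR-322-5p changes because the 3p arm stood at the lowest value in most libraries. Neither shift passed under the replicate block (exact permutation test, adjusted p = 0.15), and of both only the first passed without 1 mouse, mouse 9 (-2.37, exact permutation test, adjusted p = 0.0317). Of the 11 entries from the rest of that cluster, 9 were never detected, miR-503-5p among them, and miR-503-3p was detected in 2 libraries.

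miR-351-5p, the abundant strand of the miR-322 cluster, has another seed, one it shares with miR-125b-5p.
miR-351-5p: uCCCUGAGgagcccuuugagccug.
miR-125b-5p: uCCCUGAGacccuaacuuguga.
Its levels lay between 12.19 and 13.65 in nonlesional skin, between 10.02 and 12.30 in papillomas and between 10.68 and 12.00 in carcinomas, where every carcinoma lay below every CHR library, as for 10.6% of all entries tested. It was lower by 1.14 on the log2 scale in cuSCC (standard error 0.33, limma adjusted p = 0.0132), where miR-322-5p from the same cluster was higher. In PAP it changed by -1.26 (standard error 0.41, limma adjusted p = 0.0336), and missed the threshold without mouse 2, 3, 7, 9 or 10 (-1.39 to -1.06, limma adjusted p = 0.0552 to 0.118) or with every entry detected in at least 1 library tested (limma adjusted p = 0.0602).

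miR-15b-3p, the less abundant arm of the miR-15b hairpin, was near the limit too. It was undetected in 4 CHR libraries, with 3.95 in mouse 8 and 4.26 in mouse 10. It was undetected in 4 papillomas, with 4.30 in mouse 8 and 7.59 in mouse 10. Its difference of 0.61 between PAP and CHR did not pass (limma adjusted p = 0.492). With undetected values raised to the detection floor it was 1.41 (limma adjusted p = 0.0498). That setting mostly compares floors. In mice 2, 3, 7 and 9 it holds 4.77, 5.40, 6.72 and 5.48 in PAP against 3.52, 4.48, 5.77 and 3.82 in CHR. It therefore cannot show a change of the strand. In cuSCC it stood at 5.04, 4.04, 5.11, 3.32, 4.41 and 6.13. The rise from CHR to cuSCC was 1.09 (standard error 0.42, 95% interval 0.20 to 1.98, limma adjusted p = 0.0476). It missed the threshold under the replicate block (limma adjusted p = 0.0509), with undetected values raised to the detection floor (0.53, limma adjusted p = 0.351), and when mouse 2, 3, 7 or 9 was left out (0.95 to 1.17, limma adjusted p = 0.0883 to 0.14). Its difference from the 5p arm shifted by 1.04 from CHR to cuSCC, which did not pass (exact permutation test, adjusted p = 0.0909). The minor arms miR-15a-3p, miR-16-1-3p, miR-16-2-3p and miR-497-3p were not detected in any library.

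**Figure D5:**
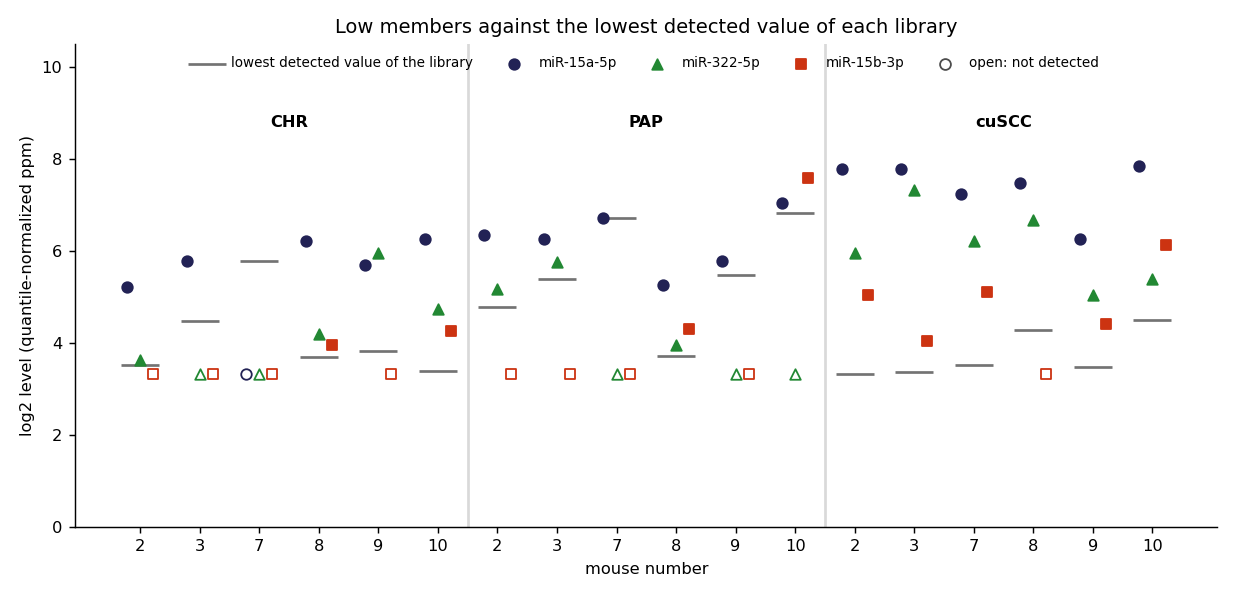
Log2 level (quantile-normalized ppm) of miR-15a-5p, miR-322-5p and miR-15b-3p in each library, by mouse within sample type, with open markers for not detected and a grey line at the lowest value detected in that library. In cuSCC the grey lines are low (3.32 to 4.50), whereas in PAP they reach 6.83, above the levels at which miR-322-5p and miR-15b-3p are seen in most carcinomas.

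Markers of vessels and blood were set beside the strands that rose in cuSCC. The endothelial pair miR-126-3p and miR-126-5p summed to 7.84 to 9.35 in nonlesional skin, 7.61 to 9.0 in papillomas and 9.26 to 11.17 in carcinomas, and both rose in cuSCC against CHR (1.40 and 1.74, limma adjusted p = 0.00493 and 0.0132) and against PAP (1.59 and 2.84, limma adjusted p = 0.0319 and 0.0269). Pearson's r of their sum over the 18 libraries was 0.762 with miR-322-5p, 0.700 with miR-16-5p and 0.588 with miR-15a-5p. Red cells are rich in miR-16 as well as in miR-451a and miR-486-5p. The erythroid list summed to 16.69 to 17.84 in nonlesional skin, 16.70 to 18.24 in papillomas and 14.87 to 17.87 in carcinomas, with miR-144-3p undetected in every library. Of its 2 tested strands miR-451a rose by 3.99 in cuSCC and miR-486-5p fell by 1.27 (limma adjusted p = 0.000747 and 0.0325). In PAP against CHR miR-451a rose by 4.78 (limma adjusted p = 0.00106), and miR-486-5p changed by 0.55 (limma adjusted p = 0.208). The erythroid sum had an r of -0.383 with miR-16-5p, -0.342 with miR-15a-5p and -0.574 with miR-322-5p. That sum was carried by miR-486-5p, with medians of 17.04, 17.84 and 15.75 in CHR, PAP and cuSCC, against 5.75, 10.66 and 8.98 for miR-451a. Its r therefore mainly describes miR-486-5p, and the r of miR-451a with miR-16-5p is not given here. Keratinocyte markers summed to 17.50 to 18.51 in nonlesional skin, 17.77 to 18.55 in papillomas and 17.50 to 18.54 in carcinomas, sums carried by miR-205-5p. The r of this sum was -0.068 with miR-16-5p, 0.095 with miR-15a-5p and -0.449 with miR-322-5p. Of the 7 keratinocyte strands 4 were higher in PAP than in CHR, and 3 were higher in cuSCC than in CHR (miR-141-3p by 1.72, miR-200a-3p by 2.02 and miR-429-3p by 1.25, limma adjusted p = 0.0165, 0.0227 and 0.0320). Among 4 tested leukocyte strands, miR-142-5p was higher in cuSCC than in CHR by 1.53, while miR-150-5p and miR-342-3p changed by -2.33 and -2.86 (limma adjusted p = 0.0132, 0.000927 and 0.000152). The leukocyte sum had an r of -0.599 with miR-16-5p, -0.532 with miR-15a-5p and -0.021 with miR-322-5p. The part of vessels, blood, leukocytes or keratinocytes in the rises of miR-15a-5p, miR-16-5p and miR-322-5p was not tested.

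The entries whose levels ran most like each 5p member over the 18 libraries differed between members. For miR-16-5p they were miR-26b-5p, miR-21a-5p and miR-192-5p, with Pearson's r of 0.923, 0.916 and 0.848. For miR-15a-5p they were miR-98-5p (0.859), miR-21a-5p (0.799) and miR-24-2-5p (0.796), so miR-21a-5p, a microRNA raised in many carcinomas, stood near both. For miR-15b-5p they were miR-331-3p (0.832), miR-92a-3p (0.777) and miR-210-5p (0.763). For miR-195a-5p they were miR-143-3p (0.943), a smooth muscle and fibroblast microRNA, miR-10b-5p (0.908) and miR-199a-5p (0.890). For miR-322-5p they were miR-431-5p (0.803), miR-22-3p (0.795) and the endothelial miR-126-3p (0.764). After the means of the sample types were taken out, r was 0.857 for miR-26b-5p with miR-16-5p and 0.897 for miR-143-3p with miR-195a-5p, but 0.458 for miR-126-3p with miR-322-5p. For miR-21a-5p it was then 0.857 with miR-16-5p but 0.473 with miR-15a-5p.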

How the data were processed

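The authors trimmed adapters from small RNA reads of 18 libraries (HiSeq), discarded very short reads and those with homopolymer ends, compared the rest with miRBase by BLAST and expressed each microRNA in ppm of usable reads. The deposited values are log2 values of ppm. That they were quantile normalized across the libraries, with 10 ppm as the lowest value, was read from the values. Human samples were not analysed here.

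An entry was detected in a library where it exceeded the lowest value. Entries detected in at least 6 libraries were tested with limma 3.58.1 under R 4.3.3, on the log2 scale and two-sided, 6 libraries of each type and no block, with Benjamini-Hochberg adjustment over 293 entries and a threshold of 0.05. Within-library differences were compared by exact permutation tests (Python 3.11.15, numpy 2.4.6), adjusted over 12. Summed levels and shares were taken on unlogged values. The code was tested on simulated data. No 2 of the 153 pairs of libraries were identical, and the values carry no depth, so no counting error is given.

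The mouse number in the labels pairs the libraries, since 1 animal gave all types. Deviations from the group means of same-numbered libraries correlated with a mean r of 0.025 (PAP with CHR), -0.068 (cuSCC with CHR) and 0.058 (cuSCC with PAP), and over 0.1 in 2, 1 and 2 of 6 mice. The fit with mouse as a replicate block was an alternative, beside other filters, treatments of undetected values, a median-centred table, a fit on all 3 types, exact permutation tests, the study's thresholds, and leaving out each mouse.

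Entries named are the members, their other arms, seed mates and cluster neighbours, and the 3 entries with the highest correlation to each tested 5p member. The members, lists and tests were chosen with earlier results of these data known. Mature sequences are from RefSeq (GRCm38.p6), which matched 1003 of 1251 entries (miR-497-5p as miR-497a-5p), and hairpin positions are from the GRCm38 gene annotation. The submitters' processing notes name mm10.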

Additional observations from a re-analysis of the deposited data

Results flagged for a closer look

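In 6 of 32 groups of 6 libraries one library stood apart from the rest by Dixon's test at the 95% level, which chance alone would do in about 1 of 20 groups. miR-15a-5p was undetected, at 3.32, in the CHR of mouse 7, with 5.21 as the nearest of the others, in a library whose lowest detected value was 5.77. miR-15b-3p was at 7.59 in the PAP of mouse 10, with 4.30 as the nearest, and that library's lowest detected value was 6.83. The other groups hold a strand that is at the lowest value of 3.32 in nearly all libraries, so that any detection stands apart. These were miR-322-3p at 3.82 in the CHR of mouse 9 and at 3.81 in the PAP of mouse 8, and miR-503-3p at 4.94 in the CHR of mouse 10 and at 3.64 in the cuSCC of mouse 7. The difference of miR-15b-3p between PAP and CHR was 0.61 with mouse 10 and 0.071 without, and neither passed (limma adjusted p = 0.492 and 0.875). It was 1.41 with undetected values at the lowest detected value of their own library (limma adjusted p = 0.0498). The strand was undetected in most PAP and CHR libraries, so that setting mostly compares their detection floors and cannot show a change of the strand.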

How the results depend on the processing

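Of 376 results under alternatives, 301 kept direction and side of the threshold. miR-15a-5p and miR-16-5p rose in cuSCC against CHR, and miR-195a-5p fell in PAP, under every alternative run for them. The number of members passing in PAP against CHR was 2, but 1 with mouse as a replicate block and 1 to 2 without 1 mouse. It was also 2 with undetected values at the lowest detected value of their library, but there miR-15b-5p was lost and miR-15b-3p gained (limma adjusted p = 0.0727 and 0.0498). The gain rests on detection floors, since miR-15b-3p was undetected in most PAP and CHR libraries. In cuSCC against CHR it was 4, but 3 with the replicate block, with entries detected in at least 1 library, with undetected values at the lowest detected value, in the fit on 3 types and by exact permutation tests, 2 with 100 ppm as the lowest value and 3 to 4 without 1 mouse, and miR-15b-3p had no value at 100 ppm. In cuSCC against PAP it was 1, but 0 with entries detected in at least 1 library and by exact permutation tests, 2 with undetected values at the lowest detected value of their library, with the replicate block and in the fit on 3 types, 3 at 100 ppm, 4 at the study's thresholds (fold 1.5, unadjusted p under 0.05), and 0 to 3 without 1 mouse. The shares of all entries passing under these alternatives are not given, so the counts show only how far the members' calls hold. The replicate block changed the call of miR-15b-5p (PAP against CHR), miR-15b-3p (cuSCC against CHR) and miR-195a-5p (cuSCC against PAP) and, among differences within a library, of each that had passed (0.48 for miR-15a-5p minus miR-16-5p from PAP to cuSCC, 1.94 and 1.77 for miR-15a-5p minus miR-15b-5p, -1.90 and -1.94 for miR-322-3p minus miR-322-5p), and no other call. At 100 ppm those differences were 0.050, 0.77, 1.34, -0.12 and -0.12 and did not pass, and without 1 mouse they ran from 0.37 to 0.61, 1.54 to 2.43, 1.53 to 2.01, -2.37 to -1.55 and -2.23 to -1.68. Directions turned, in no case past the threshold, for miR-322-5p in PAP against CHR (0.86 with undetected values at the lowest detected value, 0.015 median-centred, -0.55 to 0.47 without 1 mouse), for miR-15b-5p (-0.15 to 0.19), miR-195a-5p (-0.32 to 0.98) and miR-497-5p (-0.27 to 0.36, and 0.045 at 100 ppm) in cuSCC against CHR, and for miR-15b-3p (-0.88 with undetected values at the lowest detected value, -0.16 at 100 ppm) and miR-351-5p (-0.037 to 0.25 without 1 mouse) in cuSCC against PAP. So did differences in PAP against CHR, with undetected values at the lowest detected value, at 100 ppm and without 1 mouse in turn: miR-15a-5p minus miR-16-5p (-0.24, -0.57, -0.34 to 0.42), miR-15a-5p minus miR-15b-5p (-0.24, -0.57, -0.38 to 0.52), and, without the second of these, miR-15b-3p minus miR-15b-5p (0.76, -0.55 to 0.18) and miR-322-3p minus miR-322-5p (-0.39 to 0.53 without 1 mouse). In cuSCC, miR-15a-5p minus miR-16-5p was -0.52 and miR-15b-3p minus miR-15b-5p -0.051 against CHR at 100 ppm, and the latter was -0.27 against PAP with undetected values at the lowest detected value. The causes were not tested. Depth is unknown, so how far below a library's lowest detected value an undetected member lay cannot be stated.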
